A study of Mus musculus with 9 samples.

Results

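Regulators of G protein signalling (RGS proteins) were examined in the striatum of mouse embryos through 10 genes, Rgs2, Rgs4, Rgs7, Rgs8, Rgs9, Rgs10, Rgs12, Rgs14, Rgs16 and Rgs20, of the 44886 genes counted. The 10 were taken by name, by way of their Ensembl identifiers in GENCODE M21, and Rgs4 was chosen by its measured counts, which were lower in both mutants. All 10 had counts in every embryo and passed the filter on low counts, so none was left untested for low expression.

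The RNA came from single embryos at E17.5, 3 labelled Control, 3 labelled Islet1Cre;Ebf1fl/- (here Islet1Cre mutants) and 3 labelled Dlx5/6::Cre;Ebf1fl/- (here Dlx5/6::Cre mutants), on a background given as C57BL/6 in the labels, whereas the methods of the study name a mixed B6D2F1/J background for the Islet1Cre line. In both mutants 1 allele of the transcription factor gene Ebf1 was null and the other was floxed, that is, removed where Cre is present. Males heterozygous for the null allele and carrying Cre were mated with females homozygous for the floxed allele, so every embryo, controls included, inherited a floxed allele, and heterozygous embryos served as controls. Which allele or Cre each control carried is not told by its label. Islet1Cre acts in the projection neurons of the direct pathway (dSPN) and in cholinergic interneurons, and Dlx5/6::Cre in all striatal projection neurons (SPN) and interneurons. The study used the pair of lines to ask what loss of Ebf1 from dSPN alters in the striatum.

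Heterotrimeric G proteins carry the signal of dopamine, acetylcholine, adenosine, opioid and glutamate receptors into the cell, and they are active while their alpha subunit holds GTP. RGS proteins bind the active alpha subunit and speed its GTP hydrolysis, so that the signal ends sooner. The members fall into 4 subfamilies. R4 proteins (Rgs2, Rgs4, Rgs8, Rgs16) are little more than the RGS domain. R7 proteins (Rgs7, Rgs9) are stabilized by the G protein subunit Gnb5, and the long form of Rgs9 is known as a striatal protein that limits dopamine and opioid receptor signalling. R12 proteins comprise the small Rgs10 and the large Rgs12 and Rgs14, which also bind Ras-type GTPases and inactive alpha subunits. Rgs20, of the RZ subfamily, acts on Gz.

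Total counts on genes ran from 16.5 M to 41.5 M per embryo. Ebf1 itself was not lower in either mutant (log2 fold change 0.41 and 0.33), so its count over the whole gene does not check the genotypes, which are given as labelled. SPN markers were present in every embryo. The summed normalized count of 5 SPN markers (Bcl11b, Ppp1r1b, Foxp1, Gad1, Gad2) ran from 51727 to 70119. Of these, Foxp1 was lower in the Dlx5/6::Cre mutants (log2 fold change -0.53, adjusted p = 0.030 by edgeR), and the others passed in neither comparison. The library labelled Dlx5/6::Cre;Ebf1fl/- replicate 1 stood apart. Its sum over 7 cortical excitatory neuron markers was 5787 against 958 to 2952 in the other embryos, its sum over 5 markers of dividing progenitors was 12832 against 2137 to 3545, and its sums over SPN and GABAergic interneuron markers, 51727 and 5468, were the lowest. Its sums over astrocyte and radial glia markers, 27377 against 13865 to 21066, and over mural markers, 3776 against 2329 to 2998, were the highest. Its cholinergic interneuron sum of 762 was the lowest (872 to 1503 in the others). All 7 cortical and all 5 progenitor markers were highest in this library, so the log2 fold changes of the members in the Dlx5/6::Cre mutants are also given without this embryo. The other Dlx5/6::Cre mutants stood apart less, with cortical sums of 2450.4 and 2952 above all controls (at most 2364) and all Islet1Cre mutants (at most 1805), and with GABAergic interneuron sums of 9225 and 7884 below all controls (at least 9606). The part of these markers in the results was not tested. Cell type markers with 0 counts in all embryos numbered 0, but Gfap (at most 15 reads) and Pvalb (at most 3 reads) were too low to test. In RNA from whole tissue, fewer cells of a type and less RNA per cell cannot be told apart.

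Promoter sequences are shown first because the deleted gene encodes a DNA-binding protein. RefSeq (GRCm38.p6) gave windows for 8 of the 10 members, 11 windows in all, and Rgs14 and Rgs20 were not among them. The 250 bases before the start site of Rgs4, on the minus strand of chromosome 1, are printed because Rgs4 is the member that was lower in both mutants, with the letters TATAAA in capitals, 31 bases before the start site.
Rgs4 (chr1:169747643-169747892, minus strand): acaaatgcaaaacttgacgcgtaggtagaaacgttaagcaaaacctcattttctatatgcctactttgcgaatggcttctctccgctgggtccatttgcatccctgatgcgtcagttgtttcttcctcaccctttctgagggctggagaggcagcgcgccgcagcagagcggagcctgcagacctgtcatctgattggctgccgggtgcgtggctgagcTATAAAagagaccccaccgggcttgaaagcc
Such letters on the gene's own strand stood in 7.59% of all 32851 promoter windows of this length (12.4% on either strand) and, among members, in those of Rgs4 and Rgs9. Ebf proteins recognize a palindrome whose centre reads CCCNNGGG, the same on both strands. These letters stood in 11.8% of all windows and in 5 of the 11 member windows, belonging to Rgs7, Rgs10, Rgs12 and Rgs16. They were not in the windows of Rgs4, Rgs2, Rgs8 or Rgs9. The stretches that hold them are printed with the 8 matching letters in capitals, to set them beside the counts of the same genes. The nearer of the matches of Rgs16 starts 38 bases before its start site.
Rgs16 upstream match (chr1:153740193-153740220, plus strand): tgagatgaggCCCTGGGGgctaccagtc
Rgs16 near match (chr1:153740305-153740332, plus strand): cccgccccgcCCCACGGGgataaaagcc
Rgs7 upstream match (chr1:175492655-175492682, minus strand): ggcctgtgctCCCGAGGGgttgcggggt
Rgs7 near match (chr1:175492621-175492648, minus strand): gccggggacaCCCAGGGGtgtggcggcg
Rgs12, first start site (chr5:34949293-34949320, plus strand): agaagcaggaCCCGCGGGgtcagagtcc
Rgs12, later start site (chr5:34998828-34998850, plus strand): ggtaaCCCTGGGGggtgggggtt
Rgs10 (chr7:128418257-128418284, minus strand): ggacccagtgCCCACGGGcgcgggtggg
A match of letters describes the sequence and shows no binding, and no binding was measured here.

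Rgs4 is protein-coding gene ENSMUSG00000038530 on chromosome 1, from 169741477 to 169747642 of GRCm38 on the minus strand. It encodes a small RGS protein that acts on Gi, Go and Gq alpha subunits and is abundant in brain. Counts divided by DESeq2's size factor of the library are called normalized counts below. Rgs4 measured 12359, 11293 and 13492 in controls 1 to 3, 3376, 2833 and 6443 in the Islet1Cre mutants, and 1423, 2951 and 2669 in the Dlx5/6::Cre mutants. Every mutant embryo was below every control, by a wide gap, and replicate 3 of the Islet1Cre mutants was the highest of the 6. The means were 12382 ± 1099.7, 4217 ± 1947 and 2348 ± 813 (SD, n = 3 each), that is, 34.1% and 19.0% of the control mean in the respective mutants. On the log2 scale Rgs4 changed by -1.56 (SE 0.31) in the Islet1Cre mutants and by -2.40 (SE 0.32) in the Dlx5/6::Cre mutants. Because Rgs4 was selected on these contrasts, both values are descriptions and no p is given. Among all 16368 genes tested, 0.501% passed the threshold as lower in the Islet1Cre mutants and 1.34% in the Dlx5/6::Cre mutants.

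Markers of dSPN, in which both lines act, are given beside Rgs4 because some had low values in the Dlx5/6::Cre mutants. Of 6 dSPN markers (Drd1, Tac1, Pdyn, Isl1, Foxp2, Ebf1) 0 passed by edgeR in either mutant. In the Dlx5/6::Cre mutants 5 had an unadjusted p below 0.05 by edgeR (15.5% of all genes did). Of these 5, Drd1 was higher, and Tac1, Pdyn, Isl1 and Foxp2 were lower. Tac1, Pdyn and Isl1, 3 of the 6, lay below all controls (20.9% of genes tested had groups that did not overlap, in either direction). Their log2 fold changes there were -1.12 for Tac1 (adjusted p = 0.078 by edgeR, 0.049 by DESeq2), -0.77 for Pdyn (0.232 and 0.263) and -0.40 for Isl1 (0.082 and 0.018). Drd1, in contrast, had 0.53 (adjusted p = 0.293, edgeR). The values of Tac1, Pdyn and Isl1 in the Islet1Cre mutants were -0.53, -0.55 and -0.0036, and those of Drd1, Foxp2 and Ebf1 were 0.67, 0.03 and 0.41. There 2 markers, Drd1 and Ebf1, both higher, had an unadjusted p below 0.05 by edgeR (7.93% of all genes did). Drd1 lay above all controls there (15.1% of genes tested had groups that did not overlap, in either direction). The summed level of the 6 markers ran from 21549 to 32217 in the controls, 29729 to 30804 in the Islet1Cre mutants and 22535 to 28981 in the Dlx5/6::Cre mutants. Ebf1, the targeted gene, was the largest term in every embryo, with 7945 to 14208, 13210 to 15343 and 11774 to 15312 in these groups. The sum therefore does not show the other markers by themselves. The part of these markers in the values of Rgs4 was not tested.

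Single embryos moved these values without turning them. Leaving each embryo out in turn gave -2.002 to -1.34 for the Islet1Cre mutants and -2.60 to -2.14 for the Dlx5/6::Cre mutants. The -2.002 came without Islet1Cre;Ebf1fl/- replicate 3, and the -2.14 without Dlx5/6::Cre;Ebf1fl/- replicate 1, the library that stood apart. The codes of the embryos begin with IE or D, all Islet1Cre mutants and 2 controls having IE and all Dlx5/6::Cre mutants and 1 control D, so that code and genotype are partly confounded. Within the IE embryos the difference was -1.49, and within the D embryos, with a single control, -2.52.

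The difference in Rgs4 between the mutants was not used to choose it and was tested. The log2 difference of the Dlx5/6::Cre from the Islet1Cre mutants was -0.84 (95% interval -1.52 to -0.16), with an adjusted p = 0.868 and an unadjusted p = 0.020 by edgeR's quasi-likelihood test. The 2 groups overlapped, since Dlx5/6::Cre;Ebf1fl/- replicate 2 at 2951 was above Islet1Cre;Ebf1fl/- replicate 2 at 2833. Without Islet1Cre;Ebf1fl/- replicate 3 the difference was -0.40 (adjusted p = 0.999, edgeR), and without Dlx5/6::Cre;Ebf1fl/- replicate 1 it was -0.58 (adjusted p = 0.807, edgeR). Of all genes tested, 0% passed in this comparison by edgeR and 0.109% by DESeq2, and 5.16% had an unadjusted p below 0.05.

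**Figure D1:**
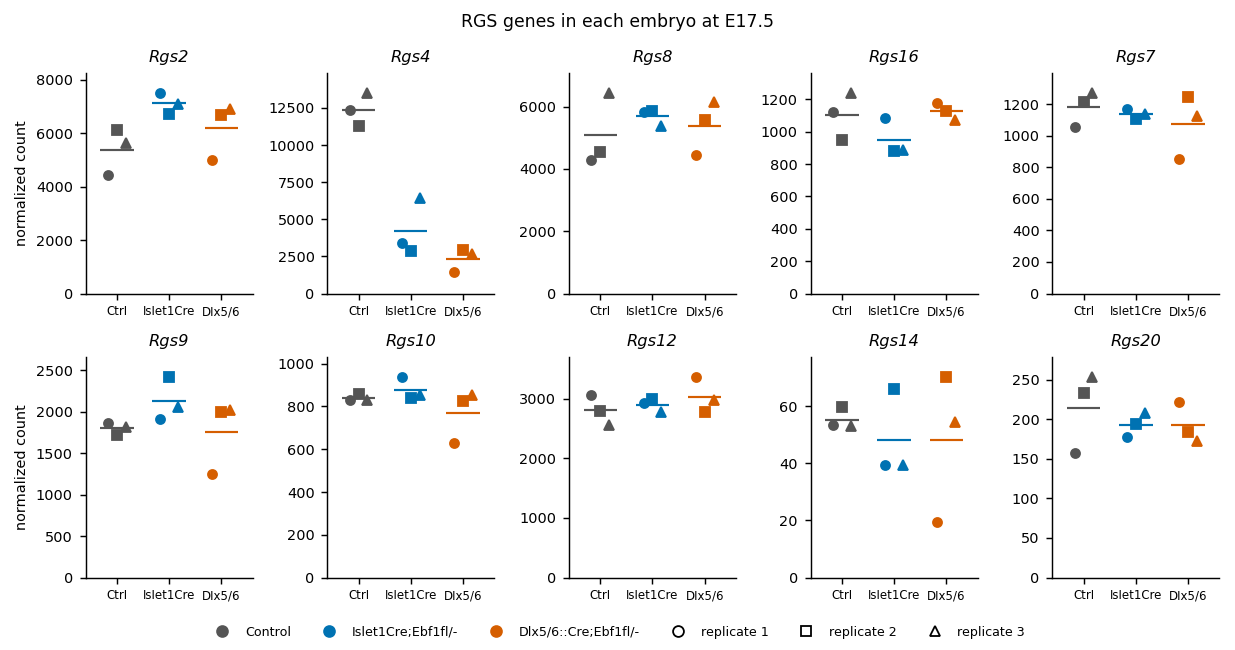
Normalized count (count divided by DESeq2's size factor, linear axis from 0) of each of the 10 RGS genes in the 9 embryos, with genotype in colour, replicate by marker shape and the mean of 3 embryos as a bar. Rgs4 lay between 11293 and 13492 in the controls and between 1423 and 6443 in the mutants, and in the other panels the groups mostly overlapped.

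The other 9 members are listed in the files as ENSMUSG00000026360 (Rgs2), ENSMUSG00000042671 (Rgs8), ENSMUSG00000026475 (Rgs16), ENSMUSG00000026527 (Rgs7), ENSMUSG00000020599 (Rgs9), ENSMUSG00000030844 (Rgs10), ENSMUSG00000029101 (Rgs12), ENSMUSG00000052087 (Rgs14) and ENSMUSG00000002459 (Rgs20), all protein-coding. Of these 9, 0 passed the threshold in the Islet1Cre mutants, where 0.971% of all genes passed, and 0 in the Dlx5/6::Cre mutants, where 2.39% passed (edgeR's quasi-likelihood test, Benjamini-Hochberg adjusted p below 0.05). By DESeq2's Wald test 0 of 9 passed in each, against 2.38% and 5.58% of genes tested. Before adjustment 1 of the 9, Rgs2, had p below 0.05 in the Islet1Cre mutants, where 7.93% of all genes had, and 0 had it in the Dlx5/6::Cre mutants, where 15.5% had. Their median log2 fold change was 0.04 and -0.04 in the respective comparisons, beside -0.0016 and 0.01 over all genes tested. Groups that did not overlap, in either direction, were seen in 2 of the 9 (Rgs2 and Rgs9, both higher) for the Islet1Cre mutants, against 15.1% of genes tested, and in 0 of the 9 for the Dlx5/6::Cre mutants, against 20.9%. Between the mutants 0 of the 10 members passed by either tool, and 1, Rgs4, had an unadjusted p below 0.05.

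Rgs2, an R4 protein that acts mainly on Gq, lies 143999338 to 144004161 on chromosome 1. It measured 4419, 6121 and 5611 in the controls, 7486, 6725 and 7099.9 in the Islet1Cre mutants, and 4983, 6689 and 6912 in the Dlx5/6::Cre mutants. All 3 Islet1Cre mutants were above all 3 controls, and the Dlx5/6::Cre mutants overlapped the controls. On the log2 scale Rgs2 differed by 0.40 (95% interval 0.09 to 0.70, adjusted p = 0.365, edgeR) in the Islet1Cre mutants and 0.20 (95% interval -0.10 to 0.51, adjusted p = 0.512, edgeR) in the Dlx5/6::Cre mutants, and neither passed. Without control 1 the latter was 0.0792. Control 1, the lowest of the controls for Rgs2, also had the lowest summed count of 6 dSPN markers of all embryos, 21549 against 22535 to 32217. The largest term of that sum was Ebf1, the targeted gene, at 7945 in control 1 against 9697 to 15343 in the others. Control 1 was also the lowest of all embryos for Drd1, but not for Tac1, Pdyn, Isl1 or Foxp2. What part that embryo's makeup had in the difference was not tested.

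Rgs8 and Rgs16 are R4 genes that lie side by side on the plus strand of chromosome 1, 153653025 to 153700323 and 153740349 to 153745468, with 40.0 kb between them. Rgs8 measured 4287, 4557 and 6433 in the controls, 5840.1, 5856 and 5367 in the Islet1Cre mutants and 4450.4, 5572 and 6150.2 in the Dlx5/6::Cre mutants. Rgs16, whose transcript is known to be induced by stimuli in many cells, measured 1123, 948 and 1237, then 1083, 882 and 884, then 1178, 1129 and 1073 in the same order. Neither gene separated the genotypes. The log2 fold changes of Rgs8 were 0.16 (95% interval -0.18 to 0.50) and 0.08 (-0.26 to 0.42), and those of Rgs16 were -0.22 (-0.48 to 0.04) and 0.03 (-0.23 to 0.29) in the Islet1Cre and Dlx5/6::Cre mutants. Within the D embryos the signs of the Dlx5/6::Cre values turned, to -0.26 for Rgs8 and -0.14 for Rgs16.

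The R7 gene Rgs9, on chromosome 11 from 109225355 to 109298129, encodes the RGS protein best known from the striatum. It measured 1859, 1715 and 1820.0 in the controls, 1915, 2414 and 2051 in the Islet1Cre mutants, and 1249, 1991 and 2016 in the Dlx5/6::Cre mutants. The Islet1Cre mutants were all above the controls, and among the Dlx5/6::Cre mutants replicate 1 was the lowest embryo of all while the other two were above the controls. The log2 fold changes were 0.24 (95% interval -0.11 to 0.60, adjusted p = 0.888, edgeR) and -0.04 (-0.39 to 0.32, adjusted p = 0.938, edgeR). Without Dlx5/6::Cre;Ebf1fl/- replicate 1 the second value turned to 0.15 (adjusted p = 0.470, edgeR). Counts per gene do not separate the long striatal form of Rgs9 from the short form of photoreceptors.

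Rgs7, the other R7 member, spans 175059087 to 175492500 on chromosome 1. It measured 1057, 1216 and 1269.8 in the controls, 1170.2, 1105 and 1138 in the Islet1Cre mutants, and 856, 1245 and 1123 in the Dlx5/6::Cre mutants. The groups overlapped, and again the lowest value belonged to Dlx5/6::Cre;Ebf1fl/- replicate 1. Its log2 fold changes were -0.06 (95% interval -0.34 to 0.23) and -0.14 (-0.42 to 0.15), the latter turning to 0.0013 without that embryo.

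Among the R12 genes, Rgs10 (chromosome 7, 128373621 to 128418758), a short RGS protein also known from microglia, measured 830.4, 858 and 828 in the controls, 936, 841 and 854 in the Islet1Cre mutants, and 627, 826 and 852 in the Dlx5/6::Cre mutants. Apart from the 627 of Dlx5/6::Cre;Ebf1fl/- replicate 1, all its values lay between 826 and 936. The summed count of 6 microglia markers ranged from 2203 to 2404 in the controls, 2048 to 2471 in the Islet1Cre mutants and 2417 to 2589.7 in the Dlx5/6::Cre mutants. Rgs12 (chromosome 5, 34949445 to 35039644), a large scaffold with RGS, Ras-binding and GoLoco domains, measured 3065, 2789 and 2553 in the controls, 2919, 2988 and 2772 in the Islet1Cre mutants, and 3356, 2772 and 2968 in the Dlx5/6::Cre mutants. Its highest embryo was Dlx5/6::Cre;Ebf1fl/- replicate 1, and the groups overlapped. The log2 fold changes were 0.06 (95% interval -0.20 to 0.32) and -0.13 (-0.38 to 0.13) for Rgs10, and 0.04 (-0.16 to 0.25) and 0.11 (-0.09 to 0.32) for Rgs12.

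Rgs14 (chromosome 13, 55369732 to 55384687), a relative of Rgs12 known from hippocampal area CA2, was the rarest member. It measured 53.4, 59.6 and 52.9 in the controls, 39.4, 66.0 and 39.4 in the Islet1Cre mutants, and 19.4, 70.1 and 54.6 in the Dlx5/6::Cre mutants. The mutant embryos spread on both sides of the controls, from 18 to 93 reads per embryo, and the 95% intervals of the log2 fold changes, -1.05 to 0.71 and -1.06 to 0.67, were the widest of the members. Rgs20 (chromosome 1, 4909576 to 5070285), the RZ member, measured 157, 233 and 253 in the controls, 178, 194 and 208 in the Islet1Cre mutants, and 221, 184 and 172 in the Dlx5/6::Cre mutants, with log2 fold changes of -0.15 and -0.16. All its mutant values lay within the range of the controls. Exons of Rgs20 overlap those of Atp6v1h, a proton pump subunit gene on the other strand whose normalized counts ran from 3199 to 4221. The libraries marked strand but the setting used in counting is not given in the sources used here. How reads in the stretches shared by the 2 genes were counted for Rgs20 is therefore not known. Exons of Rgs8, Rgs16 and Rgs12 also overlap genes on the other strand, which had at most 2, 6 and 2 reads in any embryo.

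**Figure D2:**
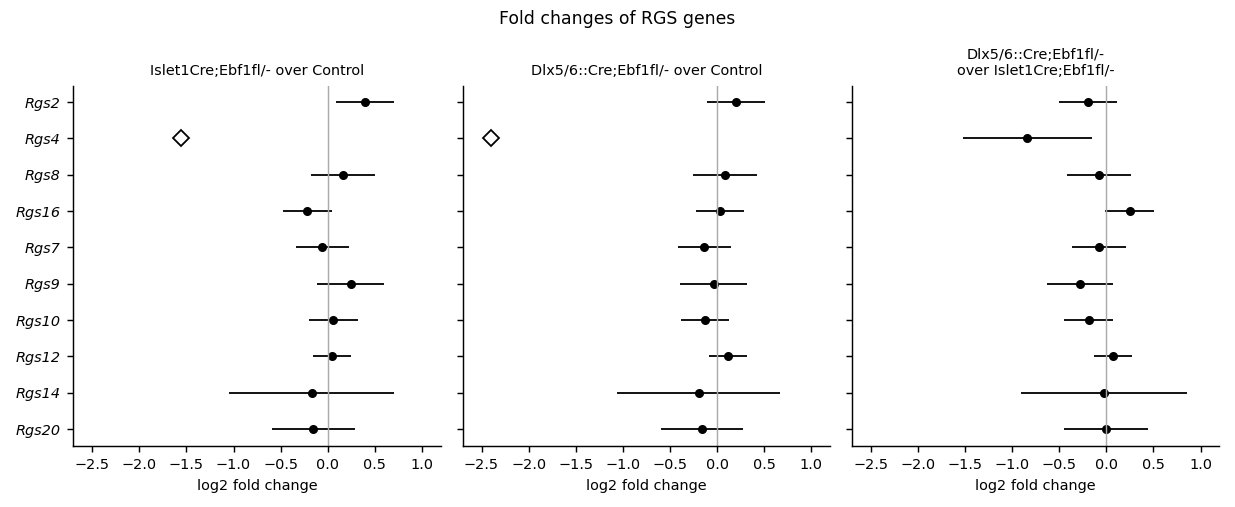
Log2 fold change of each RGS gene in the 3 comparisons (edgeR), with the 95% interval as a line. Open diamonds are Rgs4 against Control, -1.56 and -2.40, drawn without an interval because Rgs4 was chosen on those contrasts. Each of the other 9 genes lay between -0.28 and 0.40 in every comparison.

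The order of the members was read from normalized counts per kb of exon, since genes differ in length. In controls the mean levels per kb were 3997 ± 355 for Rgs4, 1484 ± 241 for Rgs2, 528 ± 121 for Rgs8, 490.3 ± 9.80 for Rgs10, 471 ± 62.2 for Rgs16, 330.2 ± 30.2 for Rgs12, 281 ± 11.6 for Rgs9, 196 ± 18.3 for Rgs7, 50.6 ± 11.9 for Rgs20 and 13.045 ± 0.884 for Rgs14 (SD, n = 3). Neighbours in that order did not overlap between embryos, except Rgs8 with Rgs10 and Rgs10 with Rgs16. Rgs4 was 2.16 to 3.27 times as high as Rgs2 per kb in the 3 controls. It was 0.528, 0.493 and 1.06 times as high in the Islet1Cre mutants and 0.334, 0.517 and 0.452 times as high in the Dlx5/6::Cre mutants. Thus Rgs2 headed the order of mean levels in both mutants, with 1959 ± 105 and 1708 ± 291 per kb, and Rgs4 was the next with 1361 ± 628 and 758 ± 263. Rgs4 was chosen by these same counts as lower in both mutants, so its lower place is a description. In the Islet1Cre mutants Rgs2 and Rgs4 overlapped through replicate 3, the one mutant in which Rgs4 was still above Rgs2. In the Dlx5/6::Cre mutants Rgs4 overlapped Rgs8, whose mean was 559 ± 89.7 per kb, and the next pairs in the order, Rgs8 with Rgs16, Rgs16 with Rgs10 and Rgs10 with Rgs12, overlapped as well. By mean level, Rgs8, Rgs12, Rgs9, Rgs7, Rgs20 and Rgs14 kept their places in the 3 genotypes, although Rgs12 and Rgs9 overlapped in the Islet1Cre mutants and Rgs9 and Rgs7 in the Dlx5/6::Cre mutants.

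Rgs4 made up 53.2%, 48.1% and 51.5% of the summed level per kb of the 10 members in the controls. In the Islet1Cre mutants its share was 19.3%, 17.52% and 32.7%, and in the Dlx5/6::Cre mutants 11.6%, 18.2% and 16.4%. These shares rest on the counts by which Rgs4 was chosen and are descriptions. The summed level of the other 9 came to 3505, 3935 and 4096 in the controls, 4569.6, 4305 and 4286 in the Islet1Cre mutants, and 3495, 4293 and 4406 in the Dlx5/6::Cre mutants. The sum without Rgs4 was thus above all controls in the Islet1Cre mutants and in 2 of the 3 Dlx5/6::Cre mutants, Rgs2 being its largest term, and these sums were not tested.

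**Figure D3:**
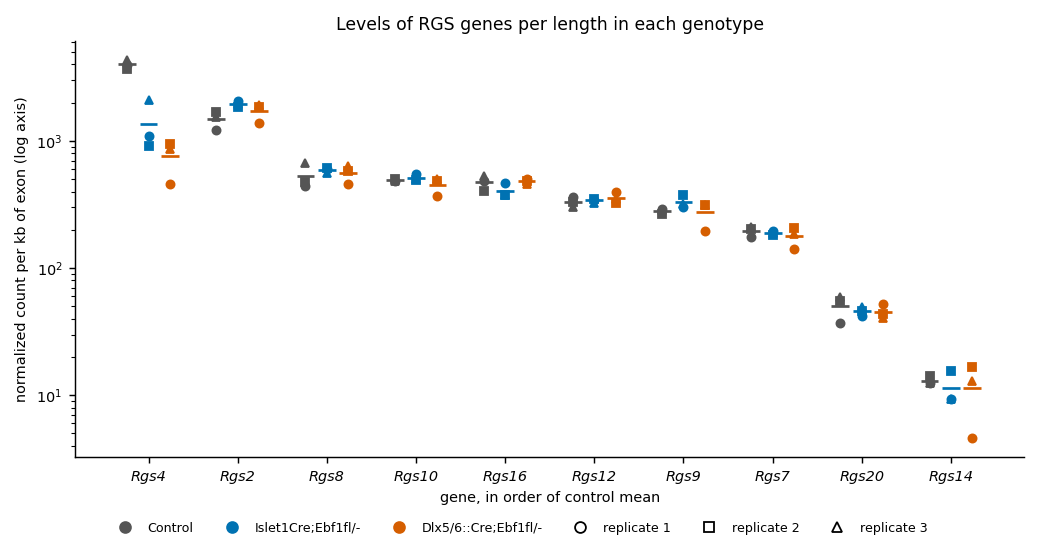
Normalized count per kb of exon (log axis) of the 10 RGS genes in each embryo, in order of the control mean, with genotype in colour, replicate by marker shape and means as bars. Rgs4 stood above Rgs2 in the controls, and the order of these genes was turned in 5 of the 6 mutant embryos.

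The spread between embryos of one genotype differed among members. Rgs4 had a coefficient of variation of 8.88% in controls, 46.2% in the Islet1Cre mutants and 34.6% in the Dlx5/6::Cre mutants. The tightest member in controls was Rgs10 with 2.00%, and the loosest were Rgs20 with 23.5% and Rgs8 with 23.0%. Rgs14, with few reads, reached 54.0% in the Dlx5/6::Cre mutants. Dlx5/6::Cre;Ebf1fl/- replicate 1 was the lowest embryo of its genotype for Rgs2, Rgs4, Rgs7, Rgs8, Rgs9, Rgs10 and Rgs14, and the highest for Rgs12, Rgs16 and Rgs20. Without it the log2 fold changes over Control were 0.34 for Rgs2 (adjusted p = 0.169), 0.20 for Rgs8 (0.529), -0.0034 for Rgs16 (0.994), -0.0020 for Rgs10 (0.994), 0.03 for Rgs12 (0.892), 0.17 for Rgs14 (0.808) and -0.27 for Rgs20 (0.539), all by edgeR. Markers of cortical neurons and dividing cells were high in this library, and their part in these values was not tested.

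Genes that followed Rgs4 most closely over the 9 embryos were Nefl (neurofilament light chain, Pearson's r = 0.996 of log2 normalized counts), Fam84b (r = 0.991), Col6a1 (a collagen VI chain, r = 0.989), Cds1 (an enzyme of phospholipid synthesis, r = 0.989) and Cdh8 (a cadherin, r = 0.989), out of 12050 genes with a mean normalized count of at least 100. These points share the genotype difference and the libraries, so the values are descriptions. Nefl measured 3149, 2566 and 3237 in the controls, 714, 629 and 1203 in the Islet1Cre mutants, and 294, 648 and 539.8 in the Dlx5/6::Cre mutants. Its highest mutant embryo was the same as that of Rgs4, Islet1Cre;Ebf1fl/- replicate 3, and its lowest was Dlx5/6::Cre;Ebf1fl/- replicate 1. Ranked by Spearman's rho instead, 2 of these 5 genes stayed among the first 5. Of the other members, Rgs7 came nearest to Rgs4 with r = 0.544 and Rgs12 was the most opposed with r = -0.627, both including Dlx5/6::Cre;Ebf1fl/- replicate 1 at an extreme.

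**Figure D4:**
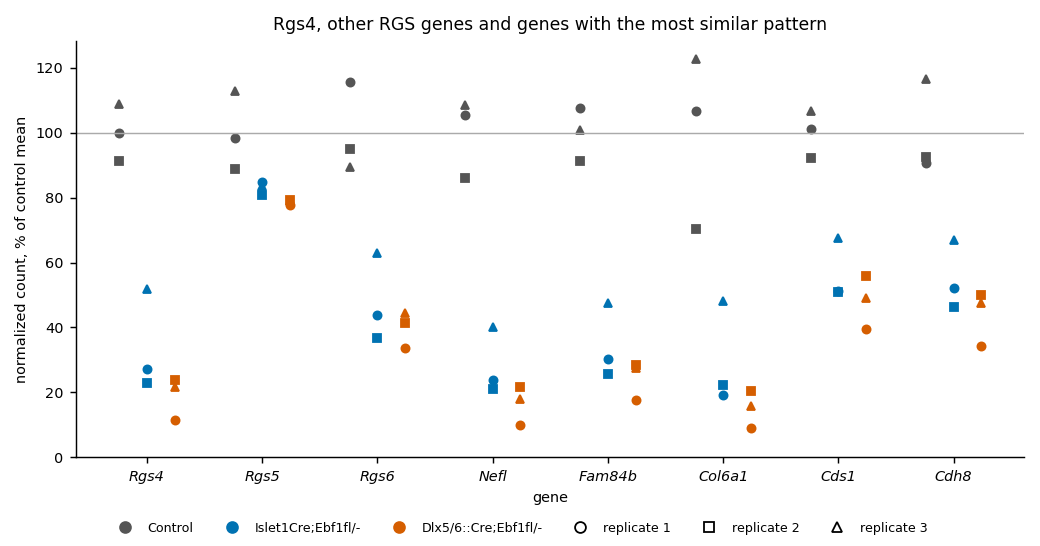
Normalized count as % of the control mean (linear axis from 0) of Rgs4, of the RGS genes Rgs5 and Rgs6, and of the 5 genes with the highest correlation with Rgs4, in each of the 9 embryos. Islet1Cre;Ebf1fl/- replicate 3 was the highest mutant embryo for Rgs4 at 52.0% and for Rgs6 at 62.9%, and Rgs5 stayed between 77.7% and 84.7% in the mutants.

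Among RGS genes outside the 10, 7 of 11 could be tested, and Rgs1, Rgs13, Rgs18 and Rgs21 had at most 5 reads in any embryo. Rgs6, an R7 protein like Rgs7 and Rgs9, was lower in both mutants. It measured 2986, 2453 and 2311 in the controls, 1135, 948 and 1625 in the Islet1Cre mutants and 867, 1073 and 1153 in the Dlx5/6::Cre mutants. No mutant embryo reached a control, and the order of the mutants was led, as for Rgs4, by Islet1Cre;Ebf1fl/- replicate 3. The log2 fold changes were -1.07 (SE 0.19, adjusted p = 0.026, edgeR) and -1.33 (SE 0.19, adjusted p = 0.005, edgeR). With the code prefix as a covariate they were -1.15 (adjusted p = 0.055) and -1.16 (adjusted p = 0.132) by edgeR, and within the IE embryos the first was -1.15 and passed (0.026). Without Dlx5/6::Cre;Ebf1fl/- replicate 1 the second was -1.22 (adjusted p = 0.006, edgeR). The first call was also lost without control 1, 2 or 3 (adjusted p = 0.118, 0.075 and 0.057) and without Islet1Cre;Ebf1fl/- replicate 1 or 2 (0.161 and 0.137). Rgs5, the neighbour of Rgs4 on chromosome 1 with 45.7 kb between them and known from mural cells of vessels, had log2 fold changes of -0.27 (adjusted p = 0.301) and -0.35 (adjusted p = 0.076) by edgeR. By DESeq2 it passed in the Dlx5/6::Cre mutants (adjusted p = 0.022) and not in the Islet1Cre mutants (0.242). All mutant values of Rgs5, 1576 to 1717, lay below all controls, 1798 to 2288, a separation that 15.1% and 20.9% of genes tested showed in the respective comparisons. The summed count of 5 mural markers was 2364 to 2998 in the controls, 2422 to 2663 in the Islet1Cre mutants and 2329 to 3776 in the Dlx5/6::Cre mutants. The 3776 was that of Dlx5/6::Cre;Ebf1fl/- replicate 1, the library that stood apart. Rgs13, the neighbour of Rgs2, was too low to test.

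The other genes of the G protein cycle were taken from lists of 87 genes that include those other RGS genes, the R7 partners, proteins with RGS-like domains, G protein subunits, GoLoco proteins and exchange factors, GIRK channel subunits and receptors, of which 79 could be tested. The lists were chosen with earlier results of these data known, so the counts are descriptions and no test of the lists was made. In the Islet1Cre mutants 3 were lower (0.501% of all genes were) and 1 was higher (0.47% of all genes were). In the Dlx5/6::Cre mutants 5 were lower (1.34% of all genes) and 1 was higher (1.05% of all genes). The median log2 fold change of the 79 was 0.03 and -0.0061, and 75 and 73 of them did not pass.

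Those lower in both mutants were Rgs6, the receptor kinase gene Grk5 and the adenosine A1 receptor gene Adora1. Grk5, which holds an RGS-like domain and phosphorylates active receptors, measured 1151, 1109 and 1030.3 in the controls, 432, 468 and 599.6 in the Islet1Cre mutants and 353, 496 and 508 in the Dlx5/6::Cre mutants. Its log2 fold changes were -1.14 (adjusted p = 0.012) and -1.28 (adjusted p = 0.003) by edgeR. Adora1, a Gi-coupled receptor, changed by -0.71 (adjusted p = 0.025) and -0.85 (adjusted p = 0.005, edgeR), from 3648 to 4054 in the controls to 2128 to 2477 and 1682 to 2366 in the mutants. Chrm4, the Gi-coupled muscarinic receptor of dSPN, and Gnb4, a beta subunit, passed in the Dlx5/6::Cre mutants, with log2 fold changes of -1.48 (adjusted p = 0.004) and -0.54 (adjusted p = 0.026) by edgeR. In the Islet1Cre mutants they had -0.86 (adjusted p = 0.076) and -0.40 (adjusted p = 0.152), where both passed by DESeq2 (adjusted p = 0.000826 and 0.043), and neither differed between the mutants past the threshold (adjusted p = 0.868 for both, edgeR). In the Islet1Cre mutants that of Grk5 was lost without control 1 (adjusted p = 0.065) or mutant 1 or 2 (0.085 each), and that of Adora1 without any control or mutant of that comparison (0.056 to 0.154), while the fold changes themselves stayed between -1.29 and -1.05 for Grk5 and between -0.75 and -0.64 for Adora1. In the Dlx5/6::Cre mutants that of Gnb4 was lost without control 1, 2 or 3 (0.087, 0.064 and 0.107) and in a fit of 6 samples (0.062), with values of -0.61 to -0.43 over the embryos left out. With the code prefix as a covariate the Dlx5/6::Cre calls of Grk5, Adora1, Chrm4 and Gnb4 were lost (0.087, 0.078, 0.088 and 0.246) at log2 fold changes of -1.19, -0.94, -1.44 and -0.58. The Islet1Cre call of Adora1 was lost too (-0.66, adjusted p = 0.094), whereas within the IE embryos Adora1 and Grk5 passed (0.016 and 0.007). Without Dlx5/6::Cre;Ebf1fl/- replicate 1 the Dlx5/6::Cre values were -1.13 for Grk5, -0.72 for Adora1, -1.36 for Chrm4 and -0.43 for Gnb4, and all 4 passed (0.001, 0.001, 0.003 and 0.022). Without Dlx5/6::Cre;Ebf1fl/- replicate 1 Chrm4 and Gnb4 also passed in the Islet1Cre mutants (0.018 and 0.024), as did Chrm4 without Islet1Cre;Ebf1fl/- replicate 3 (0.040), all by edgeR.

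Chrm3, the Gq-coupled muscarinic receptor, was the 1 gene of these lists that rose by edgeR, from 72.4, 89.0 and 69.3 in the controls to 794, 566 and 607 in the Islet1Cre mutants and 501, 667 and 755 in the Dlx5/6::Cre mutants. The log2 fold changes were 3.08 (SE 0.20, adjusted p = 0.000197) and 3.05 (SE 0.20, adjusted p = 0.000208) by edgeR, and without Dlx5/6::Cre;Ebf1fl/- replicate 1 the latter was 3.20. By DESeq2 others passed as higher as well, and are given here with the log2 fold change fitted by edgeR and the adjusted p of DESeq2. Gnai1, a Gi alpha subunit, did so in both mutants, at 0.72 (adjusted p = 0.012) and 0.74 (adjusted p = 0.005) on the log2 scale, and so did Grm5, a Gq-coupled glutamate receptor, at 0.60 (0.048) and 0.62 (0.021). Oprm1, the mu opioid receptor, passed at 0.53 in the Islet1Cre mutants (0.005), and Kcnj3, a GIRK channel subunit, at 1.11 in the Dlx5/6::Cre mutants (0.026). The alpha subunit gene Gnaz and the receptor gene Cnr1 passed by DESeq2 as lower in the Dlx5/6::Cre mutants, at -0.39 (0.041) and -0.60 (0.026). In the Islet1Cre mutants neither passed, at -0.28 (0.474) for Gnaz and -0.28 (0.943) for Cnr1. The 5 R7 partners, among them Gnb5, had no call by edgeR in either comparison, nor had the 13 alpha subunits, the 6 GoLoco proteins and exchange factors tested or the 4 GIRK channel subunits, with 0, 2, 0 and 0 of them at an unadjusted p below 0.05 in the Islet1Cre mutants (7.93% of all genes) and 0, 2, 1 and 2 in the Dlx5/6::Cre mutants (15.5% of all genes). By DESeq2 0, 1, 0 and 0 of them passed in the former and 0, 2, 0 and 1 in the latter. Grk5 was the only 1 of 14 genes with RGS-like domains that passed by edgeR in either comparison.

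**Figure D5:**
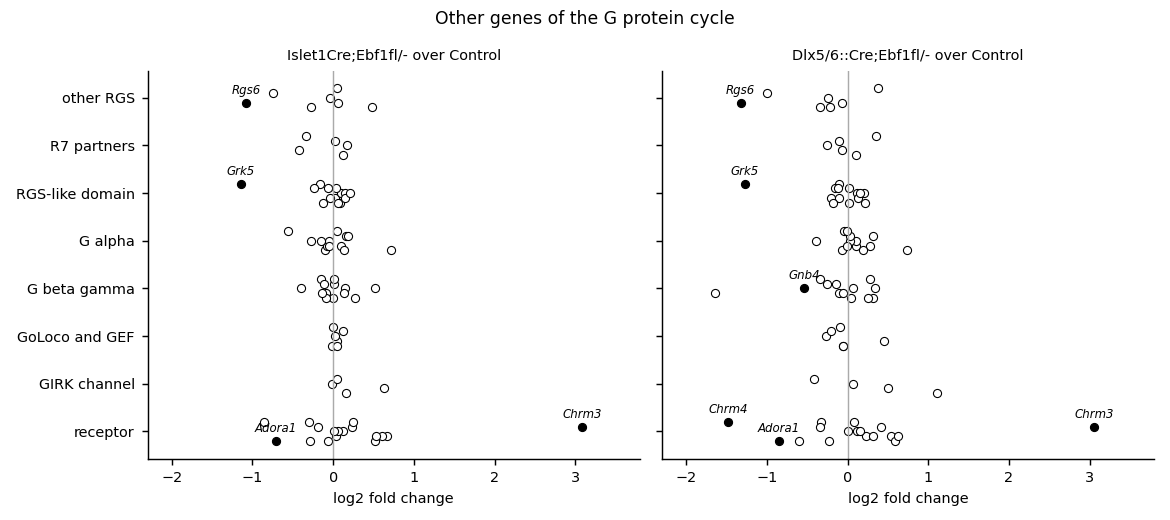
Log2 fold change (edgeR) of the 79 tested genes of the G protein cycle lists in each mutant over Control, by list, with 1 point per gene, filled and named where the adjusted p was below 0.05. Rgs6, Grk5 and Adora1 were lower and Chrm3 higher in both, and most other points lay near 0.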

How the data were processed

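Striatal RNA of 9 embryos at E17.5, 3 per genotype, was sequenced by the authors from TruSeq Stranded mRNA libraries. The deposited files hold unnormalized read counts for each Ensembl gene, which the authors made within Eoulsan by trimming and quality filtering, mapping with STAR 2.4.0k (mm10 per the labels), removal of alignments with more than 1 match and HTSeq-count 0.5.3. Removal of such reads lowers genes with near-identical copies. Of the 75-base windows of member transcripts, 0.253% of those of Rgs9 and 0% of the others occurred in another gene.

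Genotypes and replicate numbers were taken from the labels. edgeR 4.0.16 in R 4.3.3 was fitted to all 9 samples (filterByExpr, TMM, quasi-likelihood test, Benjamini-Hochberg over 16368 genes, threshold 0.05). For normalized counts, each count was divided by its library's DESeq2 1.42.0 size factor. The SE was taken as the absolute log2 fold change over the root of F. On simulated data of 16174 genes for the Islet1Cre comparison, 88% of 200 changed genes were recovered and 6.88% of calls were false. The changed genes were drawn from those above a floor of mean count. All were given larger changes than those measured for the members other than Rgs4. The share recovered therefore does not tell how often changes as small as theirs would be called. Replicates of a genotype differed by more than sampling noise (chi-square per degree of freedom at least 10.8).

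The members and gene lists were chosen with earlier results of these data known. Named genes were the 10 members, listed genes past the threshold (up to 10 by size), the 5 genes of highest Pearson's r with Rgs4, and RGS neighbours within 200 kb. Alternatives were DESeq2, its size factors in edgeR, no filter, 6 samples, the replicate block, the code prefix, each embryo left out, TMM levels and Spearman's rho. Those within a code prefix were added after seeing the data. Samples with the same number in their titles were not described as paired.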

Additional observations from a re-analysis of the deposited data

How the results depend on the processing

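For the 9 members other than Rgs4, 0 passed in the comparisons with Control and 0 of 10 between the mutants under each alternative run. The number of G protein cycle genes called did move. For the Islet1Cre mutants it was 4, and 9 with DESeq2, 8 with no filter on low counts, 2 with the code prefix as a covariate and 1 to 8 with an embryo left out (1 without control 1 or Islet1Cre;Ebf1fl/- replicate 1 or 2, 8 without Dlx5/6::Cre;Ebf1fl/- replicate 1). For the Dlx5/6::Cre mutants it was 6, and 12 with DESeq2, 10 with no filter and 1, Chrm3, with the code prefix. The share called over all genes was also larger with DESeq2. It was 2.38% against 0.971% by edgeR in the Islet1Cre mutants, and 5.58% against 2.39% in the Dlx5/6::Cre mutants. For the other settings that share is not given. With the replicate block the numbers of G protein cycle genes called stayed within 1.5 times. Same-numbered embryos did not deviate together (mean r = -0.02 against 0.01 for other numbers). 

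Of the values of single genes under an alternative, 633 stayed the same, 27 turned sign, 25 lost a call, 7 gained one and 1 moved. For values with a test, the same meant the direction and the side of the threshold. For values given without a test, such as those of Rgs4 over Control, it meant the direction and a shift smaller than the SD between embryos. Small fold changes turned sign, none past the threshold on either side. With the code prefix as a covariate Rgs8 was -0.25 and Rgs16 -0.14 in the Dlx5/6::Cre mutants, Rgs12 -0.0192 in the Islet1Cre mutants, and between the mutants Rgs16 was -0.0067 and Rgs14 0.0733. Within a prefix Rgs8 was -0.26 and Rgs16 -0.14 (D), and Rgs7 0.0037 and Rgs12 -0.0132 (IE). With the replicate block Rgs20 was 0.0065 between the mutants. Ranges with an embryo left out were, for the Islet1Cre mutants, 0.0492 to 0.37 for Rgs8, -0.49 to -0.0379 for Rgs14, -0.33 to -0.0123 for Rgs20, -0.13 to 0.0039 for Rgs7 and -0.0132 to 0.11 for Rgs12. For the Dlx5/6::Cre mutants they were 0.0792 to 0.34 for Rgs2, -0.34 to -0.0246 for Rgs20, -0.0291 to 0.28 for Rgs8, -0.0692 to 0.12 for Rgs16, -0.26 to 0.0013 for Rgs7, -0.15 to 0.15 for Rgs9 and -0.56 to 0.17 for Rgs14. Between the mutants they were -0.19 to 0.0433 for Rgs8, -0.20 to 0.0580 for Rgs7, -0.0120 to 0.13 for Rgs12, -0.39 to 0.32 for Rgs14 and -0.12 to 0.0594 for Rgs20. The cause was not tested.

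Rgs14 had 18 to 93 reads per embryo and the widest 95% intervals of the members.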
